A study of Homo sapiens with 4 samples.

Results

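The clustered, replication-dependent histone genes are described here in breast cancer cells depleted of TARBP2. They were taken as every gene whose current symbol starts with H2AC, H2BC, H3C or H4C, together with H1-1 to H1-6. The RefSeq gene table holds 70 such protein-coding genes, of which 69 had a probe on the arrays, and 74 of the 47323 probes belong to them. The other 16 entries under these symbols, which are pseudogenes and an antisense RNA, had no probe and were left out. A gene counted as measured if 2 or more of the 4 arrays gave a probe of it a detection p below 0.01. This left 24 histone genes with 27 probes, among 11270 genes measured in all, and 45 histone genes had only probes below that limit.

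Nucleosomes are built from the core histones H2A, H2B, H3 and H4, and the linker histone H1 binds the DNA between them. Most of the protein is made in S phase from clustered genes, chiefly the large HIST1 cluster on chromosome 6 and the smaller HIST2 cluster on chromosome 1. Their messenger RNAs usually end in a conserved stem-loop in place of a poly(A) tail, and the stem-loop binding protein SLBP and the U7 ribonucleoprotein act in forming that end. Many of the same genes can also give polyadenylated transcripts. The labels name the labelling kit but not its primer, so which of these forms each probe read is not known here.

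All arrays hold MDA-LM2 shDicer cells. MDA-LM2 was selected for metastasis from MDA-MB-231, a line of human breast cancer, and the cells of both groups carry a hairpin against Dicer. The knockdown arrays are siTARBP2-1 and siTARBP2-2, described as independent siRNAs against TARBP2, an RNA-binding partner of Dicer. The controls are siControl-1 and siControl-2 by their transfection labels, while the design text calls them mock-transfected. Total RNA was taken 48 h after transfection from 2 samples per group. No label says whether separate cultures were used, and p-values therefore cover the spread between these samples alone, which may be technical. An exact permutation test of 2 arrays against 2 cannot go below p = 0.333, so every call rests on limma's variance model across genes.

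TARBP2 read 6.11 and 5.79 on the knockdown arrays and 9.27 and 9.25 on the controls, on the log2 scale, 9.89-fold lower in knockdown (log2 fold change -3.31, standard error, SE, 0.11, limma adjusted p = 2.07e-10). These directions follow the column headings of the non-normalized table. In the series matrix the groups stand crosswise to them, and there TARBP2 is higher in the samples named knockdown. Between 39.1% and 40.8% of all probes and 26 to 30 of the 74 histone probes were detected on an array, with 30 on siControl-1. All 6 listed genes high in MDA-MB-231 cells, such as VIM and CD44, were detected on all 4 arrays, and 4 of them were higher in knockdown, EGFR by 0.77 and SPARC by 0.72. Of 6 luminal markers ESR1, PGR, FOXA1 and CDH1 were detected on none. ERBB3 was detected on all 4 arrays and GATA3 on both knockdown arrays and 1 control, with both knockdown arrays above both controls for each, at 0.32 and 0.34 (limma adjusted p = 0.112 and 0.162). Among blood cell markers CD14 was detected on all 4 arrays, at 0.21 (limma adjusted p = 0.0697), and PTPRC, CD3E, HBB and LYZ were on no array. Summed over the 6 luminal markers, raw signal was 618.6 to 637.7 in knockdown and 578.7 to 580 in control. Over the 6 blood cell markers it was 824.5 to 835.6 in knockdown and 783.7 to 794.9 in control. Of 4 endothelial markers PECAM1 was detected on all 4 arrays, at -0.08 (limma adjusted p = 0.694), CDH5 and KDR were detected on none, and the sum was 306.8 to 315.0 against 289.6 to 302.6. The part of these small shifts in the histone values was not tested.

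The histone transcripts that passed the test were all lower in knockdown. In bulk RNA, fewer cells of a type, such as cells in S phase, and less RNA per cell cannot be told apart. Of the 24 measured genes 7 fell (29.2%) and 0 rose, where 17.1% of all 11270 genes fell, 17% rose and 34.2% changed in either direction. The share of histone genes changed in either direction was below that of all genes, and the share that fell was above it. Before adjustment 10 of the 24 had a p under 0.05, all of them lower, where 4951 of the 11270 genes did, 2488 of them lower. Fold changes were below 0 for 22 of the 24, where 51.5% of all genes were, and their median was -0.18 on the log2 scale against -0.0087 over all genes. The knockdown arrays lay wholly below the control arrays for 13 of the 24 genes (54.2%), and this held for 34.5% of all genes. For 0 histone genes, by the brightest probe, both knockdown arrays lay above both controls, where 32.5% of all genes did so. The arrays of 67% of all genes did not overlap in either direction. All 7 genes that fell were detected on all 4 arrays. The changes were small, from 1.18-fold to 1.55-fold lower. With the arrays scaled to a common median, 3 histone genes fell and 0 rose, while 10.2% of all genes fell and 19.9% rose. Leaving out siControl-1 or siControl-2 leaves 1 control array. In each case 21 of the 24 lay below 0, and both fewer histone genes and a smaller share of all genes passed as lower. Without siControl-1 the share of histone genes that fell was near that of all genes.

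**Figure D1:**
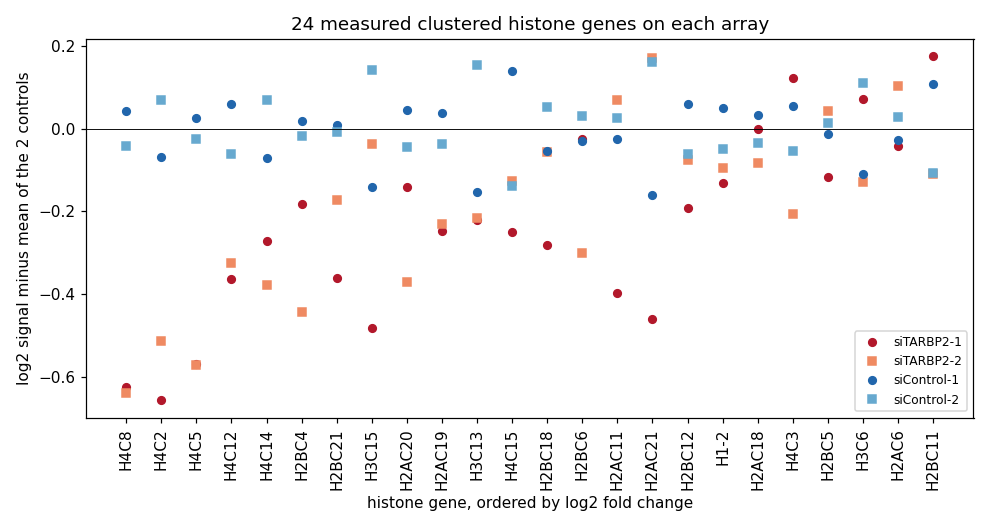
Log2 signal of each of the 24 measured histone genes on each array, minus the mean of the 2 control arrays, with the knockdown arrays in red and orange and the controls in blue. For H4C8, at the left, both knockdown points lie about 0.63 below the controls, while the groups overlap for H2BC11 and H2AC6 at the right.

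Histone H4 transcripts held the largest falls. H4 forms the tetramer with H3 at the core of the nucleosome, and its genes encode nearly the same protein. Of the 7 measured H4 genes 4 fell, where 17.1% of all genes did. All 7 had a fold change below 0, with a median of -0.34. H4C8 read 8.16 and 8.15 in knockdown and 8.83 and 8.74 in control. The groups stood well apart, with knockdown 1.55-fold lower (log2 fold change -0.63, SE 0.07, limma adjusted p = 2.61e-05). Its raw signals were 330.6 and 339.6 against 487.1 and 455.8. H4C8 passed in all 14 alternative settings that keep these headings, H4C5 in 13, H4C2 in 12 and H4C14 in 10.

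H4C2 read 5.21 and 5.35 in knockdown and 5.80 and 5.93 in control. Its signals were close to background, at 80.5 to 103.9 before correction, and the groups did not overlap (log2 fold change -0.58, SE 0.17, limma adjusted p = 0.0149). H4C5 read 5.53 on both knockdown arrays and 6.12 and 6.07 on the controls. This dim probe gave -0.57 (SE 0.15, limma adjusted p = 0.00927), and both knockdown values lay below both controls. Over all settings, the main one included, H4C5 ran from -0.59 to -0.32 and H4C2 from -0.66 to -0.31. The size of both falls thus varied with the setting, more than that of H4C8, at -0.67 to -0.55. The call of H4C5 ended without siControl-1 (limma adjusted p = 0.0506), and that of H4C2 without siTARBP2-1 (0.0870) or without siControl-2 (0.0977). H4C14, in the HIST2 cluster, read 7.002 and 6.895 against 7.202 and 7.342. The groups did not overlap, and the fold change was -0.32 (SE 0.10, limma adjusted p = 0.0262). Its call ended with median scaling (adjusted 0.0885), with no detection filter (0.127), without siTARBP2-2 (0.148) and without siControl-2 (0.175).

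The other measured H4 genes did not pass. H4C12 gave -0.34 (limma adjusted p = 0.0618) and its arrays did not overlap between groups. H4C15 gave -0.19 (limma adjusted p = 0.319) with overlapping arrays. Its promoter window is identical to that of H4C14 over all 300 bases, and the probes of such copies may read each other's transcripts. H4C3 read 12.92 and 12.59 in knockdown and 12.85 and 12.74 in control, so the knockdown arrays lay on either side of the controls. The fold change of H4C3 was -0.04 (SE 0.08, limma adjusted p = 0.736).

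**Figure D2:**
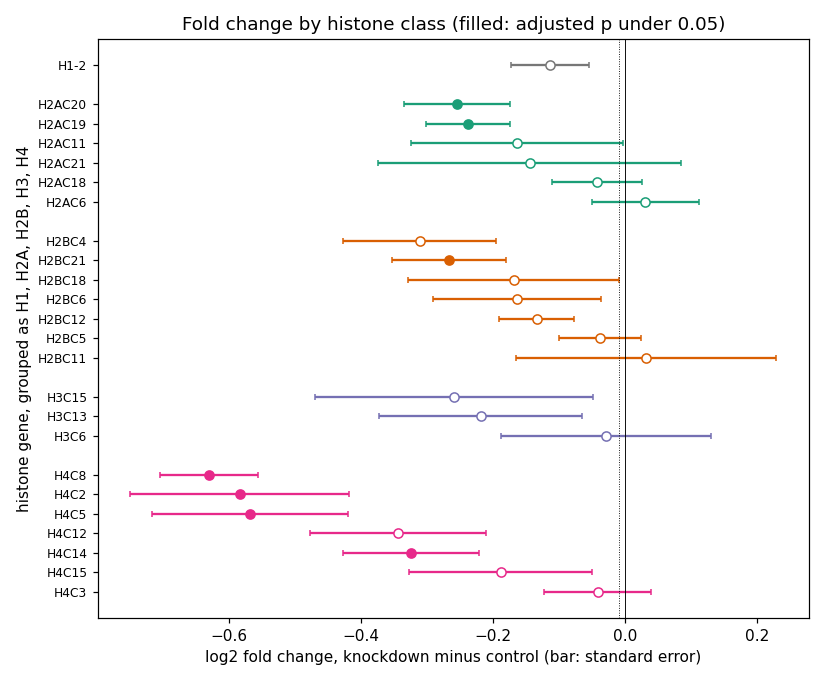
Log2 fold change of the 24 measured histone genes, knockdown minus control, with standard errors, grouped as H1, H2A, H2B, H3 and H4, where filled points passed an adjusted p of 0.05 and the dotted line is the median of all genes, -0.0087. The 4 filled H4 points reach further left than the filled H2A and H2B points, whose lowest value is -0.27.

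The promoters of the H4 genes with the largest falls are shown, each from 250 bases before to 50 bases after the RefSeq start (GRCh38.p14). Capitals mark the letters TATAAA of a TATA box and GGTCCG, the core of the H4 element known as site II, to which the factor HINFP binds. GGTCCG was chosen after these sequences had been seen. The H4C8 window is chr6:26285485-26285784 on the minus strand, that of H4C5 is chr6:26204360-26204659 on the plus strand, and that of H4C2 is chr6:26027234-26027533 on the minus strand.
H4C8: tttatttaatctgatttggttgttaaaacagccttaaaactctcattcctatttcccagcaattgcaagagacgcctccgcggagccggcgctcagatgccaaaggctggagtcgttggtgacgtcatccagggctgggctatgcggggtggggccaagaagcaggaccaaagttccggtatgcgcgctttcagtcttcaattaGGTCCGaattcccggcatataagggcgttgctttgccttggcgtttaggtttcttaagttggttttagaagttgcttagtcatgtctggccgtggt
H4C5: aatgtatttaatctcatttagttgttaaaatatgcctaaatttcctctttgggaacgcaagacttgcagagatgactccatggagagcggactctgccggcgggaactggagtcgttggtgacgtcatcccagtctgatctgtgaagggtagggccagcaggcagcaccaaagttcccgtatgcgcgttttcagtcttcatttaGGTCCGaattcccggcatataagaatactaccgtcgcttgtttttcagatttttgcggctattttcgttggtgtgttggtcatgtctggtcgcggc
H4C2: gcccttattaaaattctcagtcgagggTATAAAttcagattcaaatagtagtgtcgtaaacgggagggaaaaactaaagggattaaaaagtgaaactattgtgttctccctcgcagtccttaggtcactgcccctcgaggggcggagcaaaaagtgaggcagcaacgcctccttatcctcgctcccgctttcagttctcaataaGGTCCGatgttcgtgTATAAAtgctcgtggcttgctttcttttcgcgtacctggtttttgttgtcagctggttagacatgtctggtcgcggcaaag
In H4C8 and H4C5 the GGTCCG run is followed by the letters of a TATA-like stretch that differs from TATAAA, so only H4C2 carries TATAAA in capitals.

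Motifs were searched on both strands of the 64 histone promoters in the table, which has no entry for H4C3. GGTCCG occurred in 12 of 13 H4 promoters (92.3%), against 11.3% of all 35116 promoters. It occurred in all 6 measured H4 genes with an entry, both in those that fell and in H4C12 and H4C15, which did not pass. Among the measured genes it was found in 6 of the 7 promoters of genes that fell and in 2 of 16 others, a contrast that follows the H4 class and a shared H2A and H2B window described below. CCAAT, the letters of the NF-Y element, was in 3 of 13 H4 promoters and in every H1, H2A, H2B and H3 promoter, where 34.6% of all promoters hold it. The octamer ATTTGCAT, which POU2F1 can bind, was in 14 of 18 H2B and 11 of 16 H2A promoters and in 0 of 13 of H4, against 1.77% of all. TATAAA was in 42 of the 64, against 11.5% of all. A match is a description of these letters and not a test of binding.

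Of the 6 measured H2A genes 2 fell and of the 7 measured H2B genes 1 fell, where 17.1% of all genes did. The H2B count was not above that share. H2A and H2B pair as dimers that flank the tetramer, and many of their genes lie head to head. H2AC20 read 9.28 and 9.05 in knockdown and 9.46 and 9.37 in control. Knockdown was lower on both arrays (log2 fold change -0.25, SE 0.08, limma adjusted p = 0.0249). H2BC21 read 7.82 and 8.01 against 8.19 and 8.18. Both knockdown arrays were again below the controls, at -0.27 (SE 0.09, limma adjusted p = 0.0277). Both calls ended with median scaling (adjusted 0.101 and 0.135), with no detection filter (0.0637 and 0.0925) and without a variance trend (0.108 and 0.0689). They also ended without siControl-1 (0.143 and 0.102). Without siTARBP2-2 the adjusted p of H2AC20 was 0.233, and H2BC21 had 0.217 without siTARBP2-1 and 0.0862 without siControl-2.

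H2AC20 and H2BC21 are such a divergent pair, with starts 236 bases apart on opposite strands. Their promoters are shown because both genes fell and the windows share most of their bases. The H2AC20 window is chr1:149886668-149886967 on the plus strand and the H2BC21 window chr1:149886633-149886932 on the minus strand. Capitals mark all 4 motifs named above, with those of the other strand read as their reverse complement, and in both windows a match to GGTCCG overlaps a match to CCAAT.
H2AC20: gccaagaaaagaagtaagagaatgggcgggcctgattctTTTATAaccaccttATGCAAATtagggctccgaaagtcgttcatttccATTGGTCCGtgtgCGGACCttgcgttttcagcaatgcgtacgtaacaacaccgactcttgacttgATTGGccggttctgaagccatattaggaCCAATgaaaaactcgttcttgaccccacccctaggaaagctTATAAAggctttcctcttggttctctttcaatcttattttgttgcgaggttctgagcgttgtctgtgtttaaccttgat
H2BC21: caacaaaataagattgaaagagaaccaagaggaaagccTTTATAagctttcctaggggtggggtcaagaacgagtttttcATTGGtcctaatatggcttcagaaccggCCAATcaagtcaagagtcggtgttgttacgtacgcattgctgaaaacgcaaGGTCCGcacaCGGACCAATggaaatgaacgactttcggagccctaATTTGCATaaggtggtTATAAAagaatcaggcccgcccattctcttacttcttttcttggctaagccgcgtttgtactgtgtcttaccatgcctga
In neither of the other measured divergent pairs did a gene pass. In the pair whose starts lie 246 bases apart, H2BC4 gave -0.31 (limma adjusted p = 0.0526) and H2AC6 gave 0.03 (0.807). In the pair whose starts lie 248 bases apart, H2BC11 gave 0.03 (0.920) and H2AC11 gave -0.16 (0.469). H2BC4 read 6.83 and 6.57 in knockdown and 7.03 and 6.99 in control, and it passed with detection on all 4 arrays, the mean of probes, a robust variance model, a replicate block and without siTARBP2-1.

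H2AC19 read 9.62 and 9.64 in knockdown and 9.90 and 9.83 in control. The groups did not overlap, at -0.24 (SE 0.06, limma adjusted p = 0.0106), a call that ended with median scaling (0.135) and without siControl-1 (0.0932). H2AC18 encodes the same protein as H2AC19, and its probes gave unlike values. The brighter H2AC18 probe gave -0.04 (limma adjusted p = 0.680) and the dimmer gave -0.29, with an adjusted p of 0.0869 over detected probes. Whether these probes tell the copies apart was not tested.

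Among H2B genes with bright probes, H2BC12 read 12.61 and 12.73 in knockdown and 12.86 and 12.74 in control. The groups did not overlap but the gap was narrow (log2 fold change -0.13, SE 0.06, limma adjusted p = 0.0869), and the second probe gave -0.08. H2BC5 read 11.14 and 11.30 against 11.24 and 11.27, a fold change of -0.04 (limma adjusted p = 0.682) with overlapping arrays. Its second detected probe, joined to the same accession, read 7.88 and 8.02 against 7.82 and 7.78, with both knockdown arrays above both controls. That probe gave 0.15, with a limma adjusted p of 0.233 over detected probes. H2BC6 and H2BC18 gave -0.16 and -0.17, and H2AC21 gave -0.14. Their adjusted p lay between 0.352 and 0.668.

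Neither the H3 genes nor the H1 gene measured here passed. H3 carries the best known tail modifications, and 3 of its 13 genes were measured, H3C13 at -0.22, H3C15 at -0.26 and H3C6 at -0.03 (limma adjusted p = 0.299, 0.372 and 0.911). H3C15 was detected on 1 of 2 knockdown arrays and both controls. The linker histone gene H1-2 read 10.78 and 10.81 in knockdown and 10.96 and 10.86 in control. Its arrays did not overlap, at -0.11 (SE 0.06, limma adjusted p = 0.157).

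By position, 10 of the 11 coding genes of the HIST2 cluster were measured, and 4 of them fell, where 17.1% of all genes did. The median of the 10 was -0.23, with 10 of 10 below 0, where 51.5% of all genes were. Of the 55 coding HIST1 genes 14 were measured and 3 fell, near the share of all genes. Of the 14, 12 lay below 0, with a median of -0.15. The 3 HIST1 genes that fell, H4C8, H4C5 and H4C2, are all H4 genes. No gene of the HIST3 cluster, H2AC25 and H2BC26, was measured, nor was the lone H4C16. Differences between clusters or classes were not tested.

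**Figure D3:**
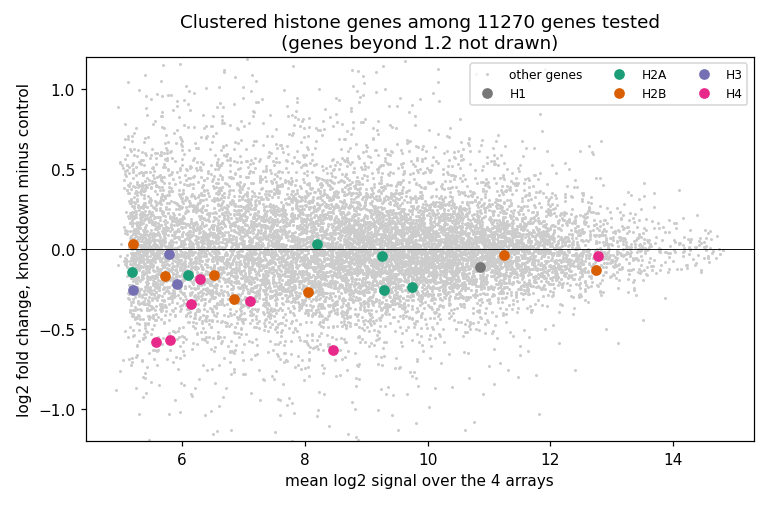
Log2 fold change (knockdown minus control) against mean log2 signal over the 4 arrays, with the 24 histone genes coloured by class over 11270 genes in grey. The called H4 genes lie between 5.57 and 8.47 in mean signal, and the histone probes above a mean of 10 lie between -0.13 and -0.04.

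The 47 histone probes below the detection limit had raw signals between 39.3 and 89.6 with a median of 62.55, near the array medians of 68.1 to 71.0. Of these probes 6 were detected on 1 array and 41 on 0. Fitted with all 47323 probes and no filter, 33 of them lay below 0 and 14 above, and no fold is read from signals at background. With every probe in the fit 4 of the 74 histone probes were lower (5.41%) and 0 higher, where 4.45% of all probes were lower, 4.71% higher and 9.15% either, so this share was near the background. The 4 were the probes of H4C8, H2AC19, H2AC20 and H4C1. H4C5, H4C2, H4C14 and H2BC21 did not pass in this fit (limma adjusted p = 0.0708, 0.0988, 0.0914 and 0.0716). H4C1 (limma adjusted p = 0.0424) had raw signals of 55.6 and 56.2 in knockdown and at most 71.1 in control. No array detected it, so neither group can be told apart from background and no fold is given.

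Each siRNA was also set against the same 2 control arrays, with the spread taken from the controls. With siTARBP2-1 5 of the 24 genes fell and 0 rose, where 12.3% of all genes fell, 12.5% rose and 24.8% changed in either direction. With siTARBP2-2 6 fell and 0 rose, where 13.6% fell, 13.6% rose and 27.2% changed. H4C8 gave -0.62 with siTARBP2-1 and -0.64 with siTARBP2-2 (limma adjusted p = 6.8e-04 and 5.4e-04). H2AC19 also passed with each, at -0.25 and -0.23 (0.0343 and 0.0438). The other calls came with a lone siRNA. H4C2, H2BC21 and H2BC12 passed with siTARBP2-1, at -0.66, -0.36 and -0.19. H4C5, H2AC20, H2BC4 and H4C3 passed with siTARBP2-2, at -0.57, -0.37, -0.44 and -0.21. H4C5 gave the same -0.57 with siTARBP2-1, where its adjusted p was 0.0528.

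A gene called with a lone siRNA is not thereby shown to differ between them. Compared directly, 0 of the 24 genes differed between the siRNAs (limma), where 0.0177% of all genes did, and 4 had an unadjusted p under 0.05, where 654 of the 11270 genes did. The smallest p was that of H4C3, 0.33 higher with siTARBP2-1 than with siTARBP2-2 (limma adjusted p = 0.497). H2AC20 was 0.23 higher with siTARBP2-1 (limma adjusted p = 0.839). Each side is 1 array, so the comparison assumes that the knockdown arrays vary like the controls.

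**Figure D4:**
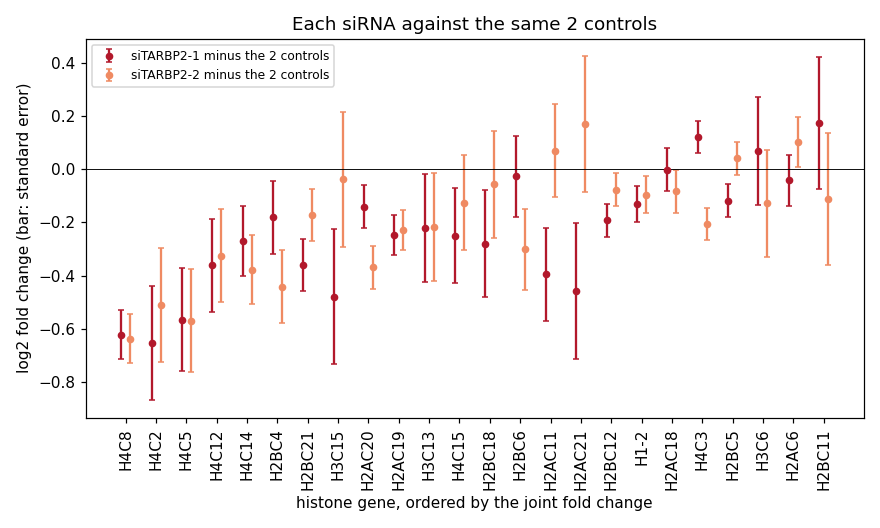
Log2 fold change of each measured histone gene with siTARBP2-1 and with siTARBP2-2, each against the same 2 controls, with standard errors. H4C8 reads -0.62 and -0.64, while H4C3 reads 0.12 and -0.21.

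Histone variants other than these clustered genes, most of them made from polyadenylated messages, were counted as a list. Of 11 measured among 19 listed, 6 fell (54.5%) and 1 rose (9.09%), where 17.1% and 17% of all genes did, with a median of -0.19. CENPA, the H3 variant of centromeres, read 9.37 and 9.40 in knockdown and 9.76 and 9.66 in control. Its arrays did not overlap, at -0.32 (SE 0.07, limma adjusted p = 0.00193). H2AJ gave -0.25 (0.00537), a call that ended with median scaling (0.0545). H3-5, H1-10 and H2AX gave -0.22, -0.24 and -0.19, the first of them a near copy of H3-3B. MACROH2A1, a large variant linked to silent chromatin, was the member that rose, by 0.18. H3-3A, H3-3B, H2AZ1 and H2AZ2 gave -0.06, -0.12, 0.04 and -0.14 and did not pass.

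Among 13 measured regulators of histone gene transcription 2 were higher (15.4%) and 3 lower (23.1%), near the 17% and 17.1% of all genes, with a median of -0.0075. NPAT, the cyclin E-CDK2 substrate that activates histone genes, read 6.74 and 6.86 in knockdown and 7.01 and 6.96 in control (log2 fold change -0.18, limma adjusted p = 0.203), lower on both arrays without passing. HINFP, the H4 promoter factor, gave 0.15 (0.112). CDC25A, a phosphatase that activates CDK2, rose by 0.34 (limma adjusted p = 4.2e-04) and CCNA2, cyclin A2, by 0.17 (0.0188). CDK2 gave -0.21 (0.00828) and MDC1, a scaffold of the DNA damage response, gave -0.23 (0.00839). The calls of both ended with median scaling (0.0967 and 0.101), without a variance trend (0.0592 and 0.0544) and without siControl-2 (0.0627 and 0.0896), and that of CDK2 with the mean of its probes (0.173). YY1 gave -0.17 (0.0209), while CCNE1 and CCNE2 gave 0.10 and 0.05 and did not pass.

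In the processing of histone message ends, 4 of 24 measured genes rose (16.7%) and 1 fell (4.17%), where 17% and 17.1% of all genes did, with a median of -0.03. SLBP, which binds the stem-loop, read 11.51 and 11.46 in knockdown and 11.44 and 11.32 in control. Both knockdown arrays were higher, by 0.10 (SE 0.06, limma adjusted p = 0.185), and SLBP did not pass. ZNF473, a zinc finger protein of the U7 complex, rose by 0.32 (0.00506), FIP1L1, a subunit of the cleavage and polyadenylation machinery, by 0.24 (0.0104) and CTIF, a translation factor linked to the cap-binding complex, by 0.43 (0.0132). The call of ZNF473 ended without siTARBP2-2 (0.0531) or siControl-1 (0.0526), and that of FIP1L1 without a variance trend (0.0567) or siControl-1 (0.114). CTIF lost its call with no detection filter (0.0817), without siTARBP2-1 (0.130) and without siControl-2 (0.0720). SNRPD3, an Sm protein shared by the U7 and spliceosomal particles, rose by 0.29 and NCBP2, the cap-binding subunit, gave -0.17. LSM10 and LSM11, the Sm-like proteins particular to the U7 particle, gave -0.06 and -0.03 and did not pass.

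Of 20 measured genes of histone message decay 4 were higher (20%) and 7 lower (35%), where 17% and 17.1% of all genes were, with a median of -0.01. SMG1, the kinase that phosphorylates UPF1, read 9.35 and 9.21 in knockdown and 9.80 and 9.92 in control. The groups stood apart, at -0.58 (SE 0.07, limma adjusted p = 4.1e-05). LSM5, LSM1 and LSM6, subunits of Sm-like rings, gave -0.32, -0.24 and -0.33, while LSM4 rose by 0.18. TUT4, a terminal uridylyltransferase, gave -0.32 and XRN1, the 5' to 3' exonuclease, gave -0.31. UPF1, the helicase, rose by 0.26 and the decapping genes DCP2 and DCP1A by 0.22 and 0.26. EXOSC3, an exosome subunit, gave -0.25.

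General cleavage and polyadenylation genes had 5 of 11 lower (45.5%) and 0 higher, where 17.1% and 17% of all genes were, with a median of -0.09. PAPOLA, the poly(A) polymerase, gave -0.30 (limma adjusted p = 6.2e-04). CSTF3 gave -0.27 (0.00179) and PABPN1, the nuclear poly(A)-binding protein, gave -0.22 (0.00951). CSTF1 and PAPOLG gave -0.50 and -0.44. Of the 11 genes 6 lay below 0, so the list was split. CPSF7 and CPSF6 gave 0.50 and 0.31 (limma adjusted p = 0.0639 and 0.0890), and NUDT21 and RBBP6 gave 0.13 and 0.17. For each of these both knockdown arrays lay above both controls, but none passed, and CPSF7 was detected on no control array. The call of CSTF3 ended with the mean of its probes (0.244), and that of PABPN1 with median scaling (0.131), without a variance trend (0.0533) and without siControl-1 (0.0809).

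Of 35 measured DNA replication genes 4 rose (11.4%) and 3 fell (8.57%), both shares below the 17% and 17.1% of all genes, with a median of 0.05. TK1, thymidine kinase, rose by 0.27 (limma adjusted p = 0.00321), while RRM2, a subunit of ribonucleotide reductase, gave -0.35 (0.00326). GINS4, of the replicative helicase, rose by 0.54 (0.00513), a call that ended without a variance trend (0.0666), without siTARBP2-2 (0.0690) and without siControl-2 (0.0645, at 0.31). Among histone chaperones 4 of 17 rose (23.5%) and 0 fell, where 17% and 17.1% of all genes did and 34.2% changed in either direction, with a median of 0.07. NASP, a chaperone of H1 and H3-H4, rose by 0.39 (3.8e-04), DAXX, the H3.3 chaperone, by 0.33 (0.00204) and RBBP4, a subunit of chromatin assembly factor, by 0.28 (0.00856). RBBP4 did not pass with the mean of its probes (0.657, at 0.05) or without siControl-1 (0.0623).

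**Figure D5:**
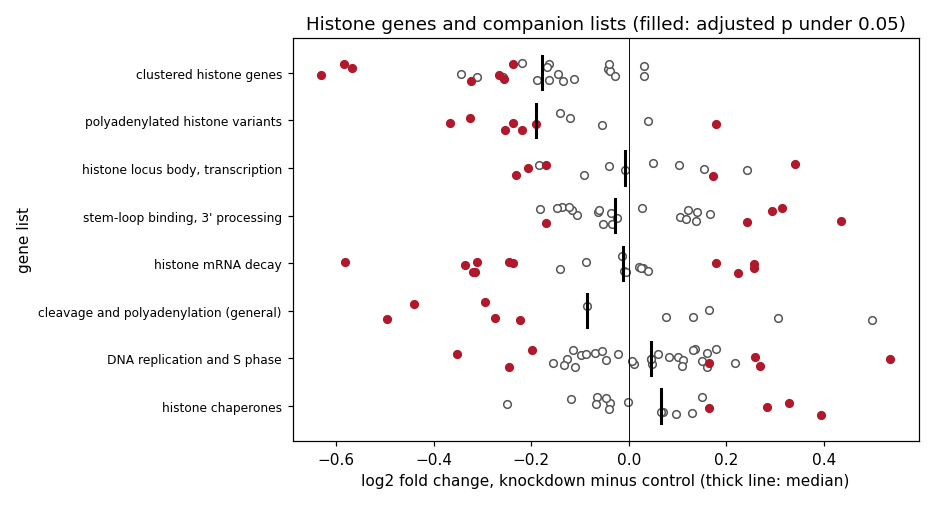
Log2 fold change (knockdown minus control) of the measured histone genes and of the members of 7 companion lists, where filled points passed an adjusted p of 0.05. The thick line is each median, from -0.19 for polyadenylated variants to 0.07 for chaperones, and the histone genes have 7 filled points, all left of 0.

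In the authors' deposited table, 0 of the 70 histone accessions carry the mark of up-regulation, which 3.12% of all 39747 accessions carry. The authors' deposited table gives values, on an arcsinh-based scale that is not set beside the log2 values above, between -0.46, for H4C8, and 0.03 for the accessions of measured histone genes, with 22 of 25 below 0. These come from the same arrays and are not separate support.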

How the data were processed

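The authors deposited raw signal intensity with a detection p-value for 47323 probes on each of 4 arrays, not background-subtracted, per the file headers and values. The deposited series matrix also holds intensity on a linear scale. The authors' deposited table gives 1 value per accession, a log fold change by its heading, and a mark for up-regulated accessions, per the file headers (other values). The submitters' processing notes name lumi.

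Probes were joined to accessions by value, because an arcsinh transform of the series matrix, averaged by group and subtracted, returns the deposited fold changes. This held with its groups crossed, the samples named knockdown subtracted from those named control. Crossed, 33116 accessions joined a lone probe, and 19 did with the groups as labelled. The deposited fold changes are thus not log2 fold changes for dim probes, and the authors' deposited values were used only to join and describe. Within 1e-09, 39313 of 39747 accessions joined 46288 probes. A shift of 1e-06 joined 18 to a lone probe. The 74 histone probes lay within 75 neighbouring rows of the file. Symbols, promoters and positions came from RefSeq (GRCh38.p14).

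Signals were processed with neqc (offset 16) of limma 3.58.1 in R 4.3.3 and the brightest detected probe stood for a gene. Groups were compared by lmFit and eBayes (trended prior, two-sided). Benjamini-Hochberg adjustment ran over the whole gene table, with a threshold of 0.05, and the steps were tested on simulated data. The number of arrays limits the precision. Members and lists were chosen with earlier results of these data known. The genes named are TARBP2, the called members, the 5 with the brightest probes among the rest, the 2 with the smallest p between siRNAs, SLBP, NPAT and the 3 smallest p of each companion list, and any others were named after their values were seen. Of these, 1 companion gene and 1 marker are not reported here.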

Additional observations from a re-analysis of the deposited data

How the results depend on the processing

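The 7 calls among histone genes became 3 with median scaling (H4C8, H4C5 and H4C2), where 10.2% of all genes were lower. Leaving out an array leaves 1 array in its group. No more histone genes then passed than in the main fit, and a smaller share of all genes passed as lower. The count was lowest without siControl-1, where the share of histone genes was near that of all genes. With no detection filter 5 of 69 histone genes were called, all lower, where 7.55% of all genes were lower. That share was near the background. The remaining settings under these headings gave 6 to 8 calls, all lower in knockdown, where 12% to 17.9% of all genes or probes were lower. The median of -0.18 was -0.13 without background correction, -0.12 with median scaling, -0.16 with cyclic loess and -0.12 over 69 genes with no detection filter, and -0.23 to -0.15 with an array left out. In the series matrix as labelled, where groups stand crosswise, it was 0.12 and TARBP2 2.57, with 7 histone genes higher. With siTARBP2-1 the 5 calls became 3 with median scaling, 3 with each probe on its own, 3 without a variance trend and 1 with no detection filter. With siTARBP2-2 the 6 became 1, 2 without a trend and 2 with no filter. Deviations of same-numbered arrays correlated at 0.0054 across genes, so the shared numbers were not taken as pairs, and a replicate block gave 8 calls. Of the named histone genes, H4C8 passed in 14 of 14 settings, H4C5 in 13, H4C2 and H2AC19 in 12, H4C14 in 10, H2AC20 in 9 and H2BC21 in 8. H4C3 passed without siTARBP2-1 and H2BC12 without siTARBP2-2. The cause of these changes was not tested, and the settings for companion genes were chosen after seeing the data. Dim probes limit what could be measured for 45 histone genes.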
